A study of Mus musculus with 6 samples.

Results

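The genes described here are 10 target and feedback genes of BMP and TGF-beta signalling in mouse fibroblasts. They are the ID genes Id1, Id2, Id3 and Id4 and the inhibitory SMAD genes Smad6 and Smad7. The others are the nuclear corepressor genes Skil and Tgif1 and the membrane protein genes Pmepa1 and Bambi. All 10 were chosen by gene symbol, and the group was put together when the FEAT-minus-control differences of these arrays were already known. Those differences are therefore a description of the members and no independent test of them. The annotation of the array gave 18 probes to the 10 genes, out of 45281 probes and 19057 named genes in all. Of these, 15 probes of 8 genes were bright enough to be tested.

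RNA came from 6 stable clones of NIH3T3, an immortalized fibroblast line from embryos of NIH Swiss mice, with 1 one-colour Illumina bead array per clone. The 3 FEAT clones (FEAT-3, FEAT-15 and FEAT-20) carried the reading frame of human FEAT, a methyltransferase gene also called METTL13, in pEF-DEST51 under the elongation factor 1alpha promoter. They were picked after 7 days in 10 µg/ml blasticidin S and screened for high FEAT protein. The 3 control clones (ΔccdB-1, ΔccdB-2 and ΔccdB-3, called control 1, control 2 and control 3 here) carried that vector with its ccdB gene deleted and without FEAT. Each array stands for 1 clone, so p-values measure the spread between clones, and 3 clones a group limit the precision of every value. Mean probe intensities were 616 to 735 per array, and the background limit, set for each array, fell at intensities of 85.6 to 90.4, with 44.5% to 48.4% of probes above it. All 10 fibroblast markers looked up, among them Col1a1, Vim and Thy1, were above the limit on all arrays. Their summed intensities were 57589 to 65728 in control and 64351 to 73786 in FEAT clones. The median log2 difference of these markers was 0.31, with 8 of 10 positive, 3 without overlap between the groups and 0 called. Over all genes tested the median was 0.0071, 15.2% had no overlap and 0.225% were called. Of the markers of other cell types, 0 of 6 endothelial, 2 of 6 epithelial (Krt14 and Cdh1) and 1 of 5 macrophage genes (Lyz2) were above it on all arrays. Summed endothelial intensities were 475 to 515 in control and 511 to 553 in FEAT clones. The epithelial sums were 15698 to 25745 and 20022 to 25895, and the macrophage sums 538 to 968 and 641 to 747. Nearly all of each epithelial sum was the Krt14 probe, at 15311 to 25302 in control and 19633 to 25479 in FEAT clones. Cdh1 read only 101 to 133, and 4 of 6 epithelial genes were under the limit on every array. The part of these markers in the values below was not tested.

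Ligands of the TGF-beta superfamily activate receptor kinases that phosphorylate SMAD proteins: SMAD1, SMAD5 and SMAD9 after BMPs, SMAD2 and SMAD3 after TGF-beta and activin. The phosphorylated SMADs enter the nucleus with SMAD4 and switch on target genes, among them their own inhibitors and, after BMPs, the ID genes. For this reason many of the genes described here are used as readouts of the pathway. ID proteins carry a helix-loop-helix domain without the basic region that contacts DNA, and they hold E proteins in dimers that cannot bind it. In fibroblasts the TGF-beta branch is best known for matrix and contractile genes, and the BMP branch for the ID genes.

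The promoters of the members whose FEAT and control clones did not overlap are shown first, where the RefSeq promoter table (GRCm38.p6) held them. That table had windows for 5 of the 10 members, namely Id2, Id3, Id4, Smad6 and Tgif1, each from 250 bases before a transcript's start to 50 after it. The stretches below run 5′ to 3′ on the strand of the gene and end 10 bases into the transcript. They lie at chr9:64022050-64022309 on the minus strand for Smad6 and at chr12:25096083-25096342 on the minus strand for Id2. Capitals mark matches to a SMAD motif: GTCTAGAC, the palindromic SMAD box, and GGCGCC, a GC-rich element of SMAD1 and SMAD5.
Smad6: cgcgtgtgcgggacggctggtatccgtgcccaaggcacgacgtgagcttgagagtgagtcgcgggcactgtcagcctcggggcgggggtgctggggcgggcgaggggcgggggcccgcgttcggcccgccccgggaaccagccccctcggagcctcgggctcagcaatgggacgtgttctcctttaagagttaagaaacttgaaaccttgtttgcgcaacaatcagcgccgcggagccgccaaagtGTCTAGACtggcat
Id2: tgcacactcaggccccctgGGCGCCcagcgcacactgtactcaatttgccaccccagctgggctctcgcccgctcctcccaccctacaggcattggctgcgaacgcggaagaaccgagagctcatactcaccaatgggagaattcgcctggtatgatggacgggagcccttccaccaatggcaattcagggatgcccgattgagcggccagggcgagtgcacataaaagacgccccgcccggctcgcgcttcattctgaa

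The palindromic SMAD box was present in the Smad6 window, beginning at position -4 where 0 is the first base of the transcript. Of all 32851 windows in the table, 70 (0.213%) held this motif, and of the 5 members with a window Smad6 alone had it. The GC-rich element began at position -231 in the Id2 window and at -148 in the Id4 window, and 11.9% of all windows held it. G and C made up 63.3% of the Id2 window and 73.3% of the Id4 window, against a median of 52.7% over all windows. The 11.9% is therefore not a share among windows of like base content. The short SMAD motif CAGAC was matched on both strands. It was held by 49.6% of all windows, and 2 or more times by 16.2%. The Id3 window had 2 such matches, at -167 and -68, and no match lay in the windows of Smad6, Id2 or Id4. Tgif1 had 5 windows, numbered 1 to 5. Window 2 had 1 CAGAC match, at -17, window 4 had 2, at -191 and -59, and window 5 had 1, at -201. The palindromic box does not contain CAGAC, so the motifs were counted separately. The E-box CANNTG, bound by helix-loop-helix factors and held by 72.3% of all windows, occurred once each in the windows of Smad6 and Id2, at 7 and -196. Tgif1 windows 1, 2, 4 and 5 had 2, 1, 4 and 1 E-boxes. A match describes the letters of these windows and is no measurement of binding.

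**Figure D1:**
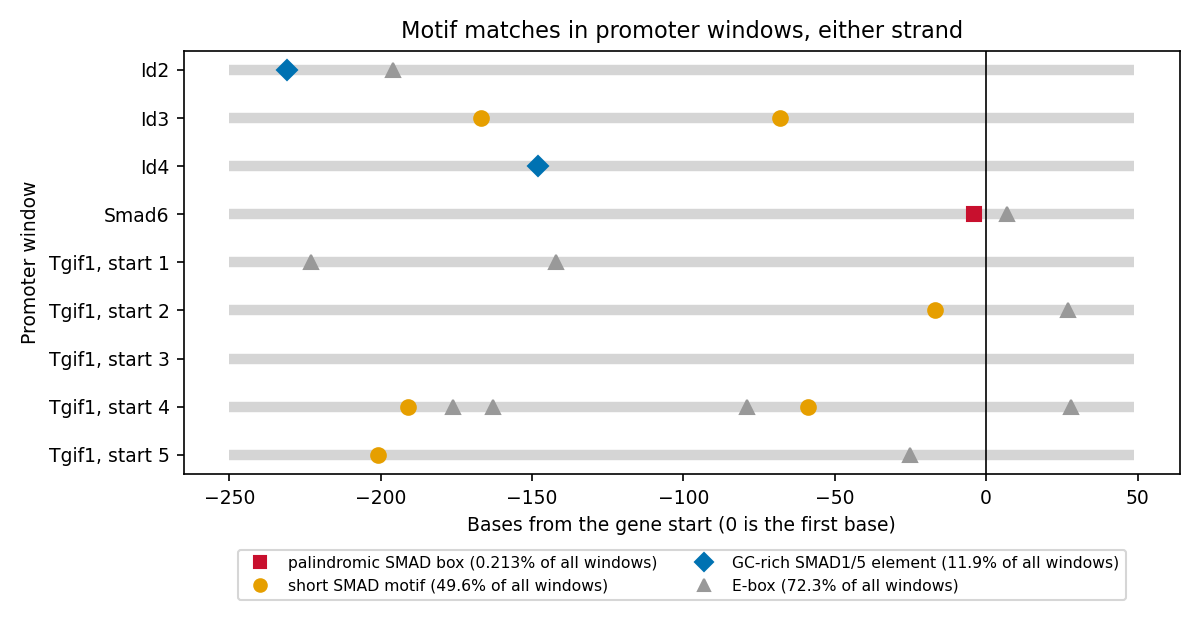
Positions of the motif matches in the promoter windows of Id2, Id3, Id4, Smad6 and Tgif1, which has 5 windows. The x axis is the distance in bases from the first base of the transcript, each grey bar is 1 window, and each marker is 1 match on either strand; the palindromic box appears in the Smad6 window at -4.

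Smad6 encodes the inhibitory SMAD that acts mainly against the BMP receptors. Its single probe read 299, 297 and 313 in control 1, control 2 and control 3, and 572, 697 and 588 in FEAT-3, FEAT-15 and FEAT-20. All FEAT clones lay above all control clones, and the clones of each group lay close together. The normalized signal rose 2.12-fold in the FEAT clones, a log2 difference of 1.08 with an SE of 0.14 (limma, adjusted p = 0.0192 over all probes tested). Of the 8 members tested, Smad6 was the 1 called on its brightest probe at an adjusted p under 0.05. Over all genes tested 0.225% were called, and over all probes 0.184%. From RNA of a whole culture, more RNA per cell and more cells with the transcript cannot be told apart. The call was lost without control 1 (adjusted p = 0.148), without control 3 (0.0593) and without FEAT-3 (0.0691), although the log2 difference stayed between 1.02 and 1.19 in the 6 omissions of a clone. The other inhibitory SMAD gene, Smad7, which acts on both branches, read 67.8 to 72.6 in control and 68.8 to 77.3 in FEAT clones. It was not well above background on any array, so no fold is given for it.

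The ID genes had higher means in FEAT clones for Id1, Id2 and Id3, and none of the 4 passed the test. Id1 read 3133, 2066 and 3216 in control 1, control 2 and control 3, and 2904, 5043 and 3886 in FEAT-3, FEAT-15 and FEAT-20. Its groups overlapped, because FEAT-3 lay inside the range of the controls. The log2 difference was 0.45 (SE 0.19), and control 2 was the lowest clone. The difference was 0.27 without control 2 and 0.28 without FEAT-15.

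Id2 had 3 probes. The brightest read 668, 550.1 and 408 in control 1, control 2 and control 3, and 584, 892 and 1335 in FEAT-3, FEAT-15 and FEAT-20. FEAT-20 was the highest clone on each of the 3 probes, and control 3 the lowest. In deposited intensity FEAT-3 lay below control 1, whereas after normalization its log2 value of 9.28 was just above the 9.22 of control 1, so that the groups no longer overlapped. The log2 difference was 0.73 (SE 0.22) on this probe and 0.50 and 0.35 on the others. FEAT-20 stood 1.20, 1.17 and 0.96 above the control mean on the 3 probes, in log2 units, while FEAT-3 stood at 0.32, 0.12 and -0.24. Without FEAT-20 the difference on the brightest probe was 0.49.

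Id3 read 1459, 975 and 969.7 in control 1, control 2 and control 3, and 1102, 1751 and 1478 in FEAT-3, FEAT-15 and FEAT-20. Control 1 lay among the FEAT clones, and the log2 difference was 0.30 (SE 0.17). It was 0.19 without FEAT-15 and 0.46 without control 1. FEAT-15 was the highest clone for Id3 as it was for Id1, and FEAT-3 the lowest FEAT clone for Id1, Id2 and Id3. Id4 was close to the background limit. Its brighter probe read 126, 90.8 and 132 in the control clones in the same order, and 95.6, 131 and 104 in the FEAT clones, a log2 difference of -0.16 (SE 0.23). The other Id4 probe, above the limit on 2 of 3 control and 1 of 3 FEAT arrays, gave 0.045, so the sign of the difference depended on the probe. On both Id4 probes control 2 was the lowest of the control clones.

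**Figure D2:**
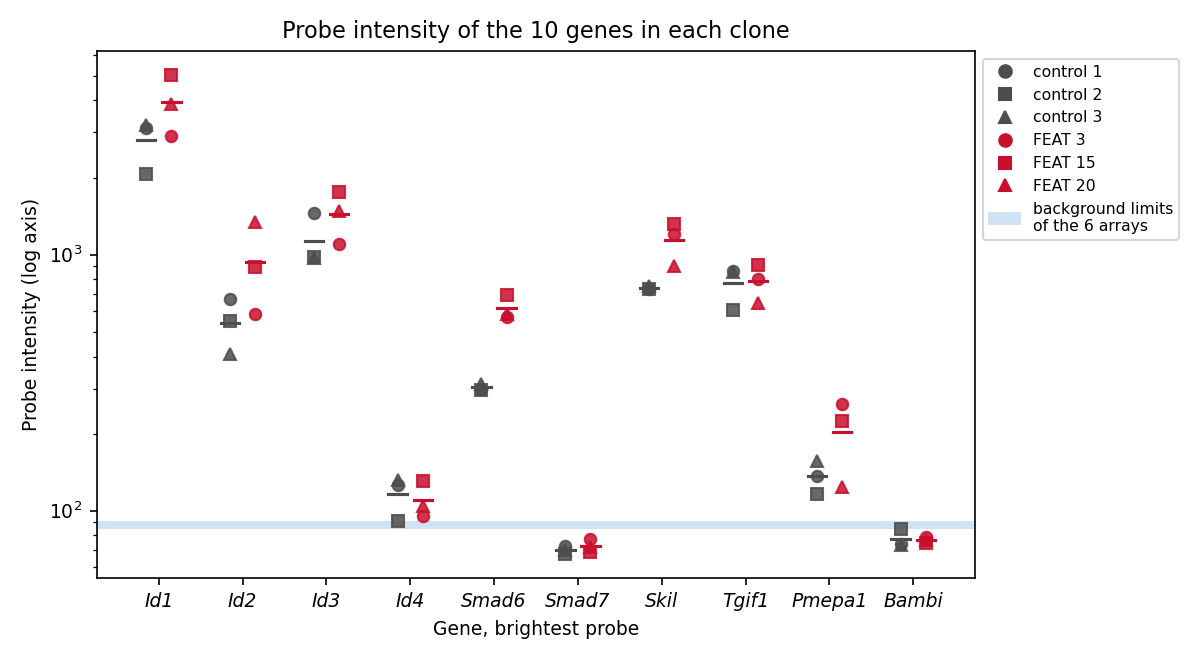
Deposited probe intensity (y axis, log scale) of the brightest probe of each of the 10 genes (x axis) in the 3 control and 3 FEAT clones; points are clones, short lines are group means, and the blue band spans the background limits of the 6 arrays. Smad6 separates the groups with 297 to 313 in control and 572 to 697 in FEAT clones, and Smad7 and Bambi lie under the band.

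Skil encodes SnoN, a corepressor that binds SMAD complexes and is itself induced by TGF-beta. Its brightest probe read 731, 735 and 751 in control 1, control 2 and control 3, and 1203, 1316 and 904 in FEAT-3, FEAT-15 and FEAT-20. The groups did not overlap, with FEAT-20 the nearest to the controls. The log2 difference was 0.58 (SE 0.19) and did not pass the test. A further Skil probe read 139, 132 and 133 in control and 162, 181 and 139 in FEAT clones, a log2 difference of 0.31, and on it FEAT-20 was the lowest of all clones after normalization. The third Skil probe was not well above background on any array. FEAT-20 stood only 0.11 and -0.082 from the control mean on the brighter probes, against 0.90 and 0.54 in FEAT-3 and 0.73 and 0.46 in FEAT-15. Without FEAT-20 the difference on the brightest probe was 0.82 (adjusted p = 0.0759), whereas it was 0.42 without FEAT-3 (0.667) and 0.51 without FEAT-15 (0.59).

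Tgif1, a homeodomain corepressor of SMAD2 and SMAD3, was measured by 3 probes and showed no difference beyond the spread between clones. The brightest read 863, 606 and 854 in control 1, control 2 and control 3, and 802, 909.6 and 647 in FEAT-3, FEAT-15 and FEAT-20. The log2 differences of the 3 probes were -0.022, -0.078 and 0.036, with SEs of 0.20, 0.17 and 0.14. On the brightest probe control 2 and FEAT-20 were the lowest clones of their groups.

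Pmepa1 encodes a membrane protein, induced by TGF-beta, that keeps SMAD2 and SMAD3 from the receptor. Its brightest probe read 137, 116 and 156 in control 1, control 2 and control 3, and 261, 224 and 124 in FEAT-3, FEAT-15 and FEAT-20. FEAT-3 and FEAT-15 were above every control clone, and FEAT-20 was within the control range in intensity and the lowest clone after normalization. The log2 difference was 0.66 (SE 0.34), with FEAT-3, FEAT-15 and FEAT-20 at 1.42, 0.85 and -0.30 from the control mean. The other Pmepa1 probe had the same order of signs, at 0.37, 0.45 and -0.091. The difference on the brightest probe was 1.13 without FEAT-20 (adjusted p = 0.0917) and 0.27 without FEAT-3. Bambi, a pseudoreceptor without a kinase domain, read 73.7 to 84.8 in control and 74.7 to 78.6 in FEAT clones and was not well above background on any array.

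**Figure D3:**
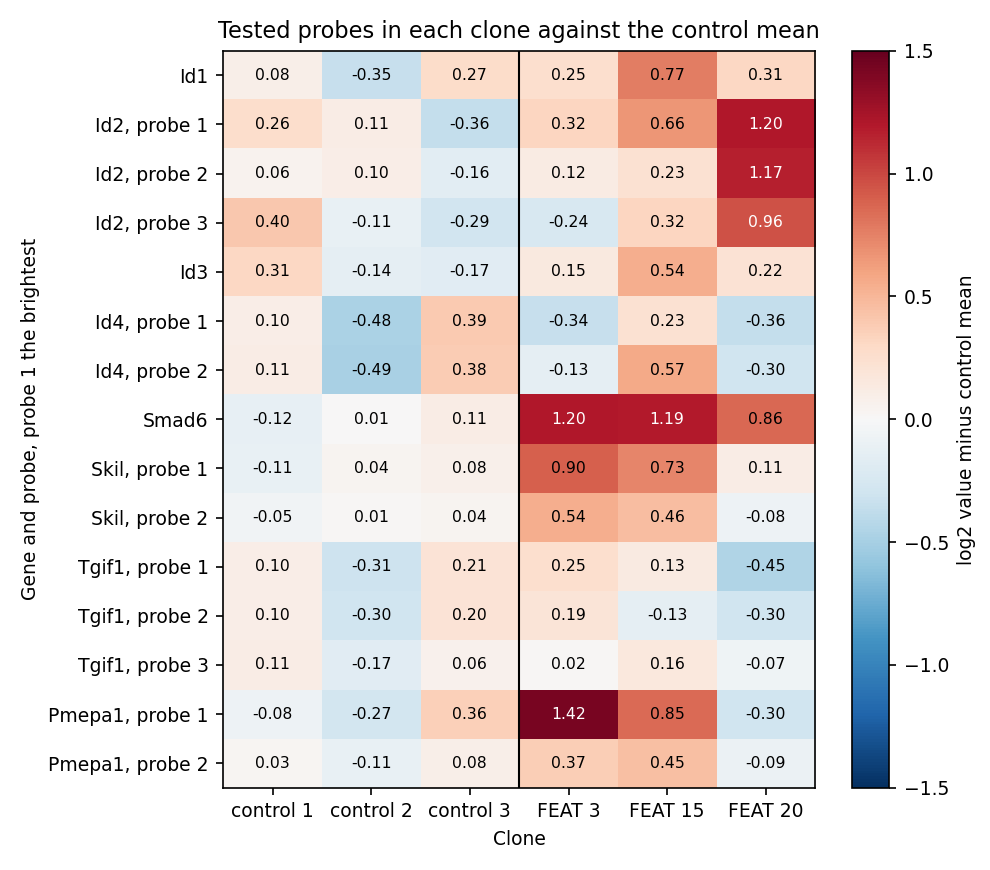
Normalized log2 value minus the mean of the 3 control clones for the 15 tested probes of the members (rows) in the 6 clones (columns); red is above and blue below the control mean, and each cell prints its value. FEAT-20 holds the highest values of the Id2 probes (1.20, 1.17 and 0.96) and values of 0.11 or less for Skil, Tgif1 and Pmepa1.

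The clones of the FEAT group were thus ordered differently by different members. After normalization FEAT-20 was the highest FEAT clone for Id2, and the lowest for 5 of the 8 tested members: Id4, Smad6, Skil, Tgif1 and Pmepa1. In deposited intensity FEAT-3 was instead the lowest FEAT clone for Smad6 and Id4. For Id4 the normalized log2 values were 5.85 in FEAT-20 and 5.87 in FEAT-3. FEAT-20 was the lowest FEAT clone for 33.5% of all genes tested. The lists differed in this. It was the lowest for 8 of 10 fibroblast markers, 5 of 7 E proteins and their listed partners and 5 of 8 extracellular antagonists. For signal-carrying SMADs it was 3 of 5, for BMP target genes 4 of 7 and for TGF-beta target genes 5 of 9. It was 2 of 5 for BMP and growth differentiation factor ligands and 4 of 12 for receptors and coreceptors. Corepressors and turnover factors had 3 of 11, and TGF-beta and activin ligands 1 of 5. Smad6 was the member whose FEAT clones differed least in relation to its difference from the controls, at 1.20, 1.19 and 0.86 above the control mean. Among the FEAT clones the SD of the log2 values was 0.88 for Pmepa1, 0.44 for Id2, 0.42 for Skil and 0.37 for Tgif1. The median SD of probes of like brightness was 0.15 to 0.16 there. For Smad6 it was 0.19 against a median of 0.16. In the control clones the SDs were 0.32 for Id1, Id2 and Pmepa1, 0.27 for Id3 and Tgif1 and 0.44 for Id4, against medians of 0.14 to 0.18, but 0.11 for Smad6 and 0.10 for Skil.

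Of the 8 members tested, 6 had a positive and 2 a negative log2 difference on the brightest probe, with a median of 0.51, against a median of 0.0071 over all 13315 genes tested. Adjusted p-values of the 7 members that were not called ran from 0.322 for Id2 to 0.985 for Tgif1. After normalization the clones of the groups did not overlap for 3 members, Id2, Smad6 and Skil, all higher in FEAT clones. Over all genes tested 15.2% had no overlap, and 7.95% had none and were higher in FEAT clones. The members had been put together with this contrast known, so nothing is read from these counts.

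**Figure D4:**
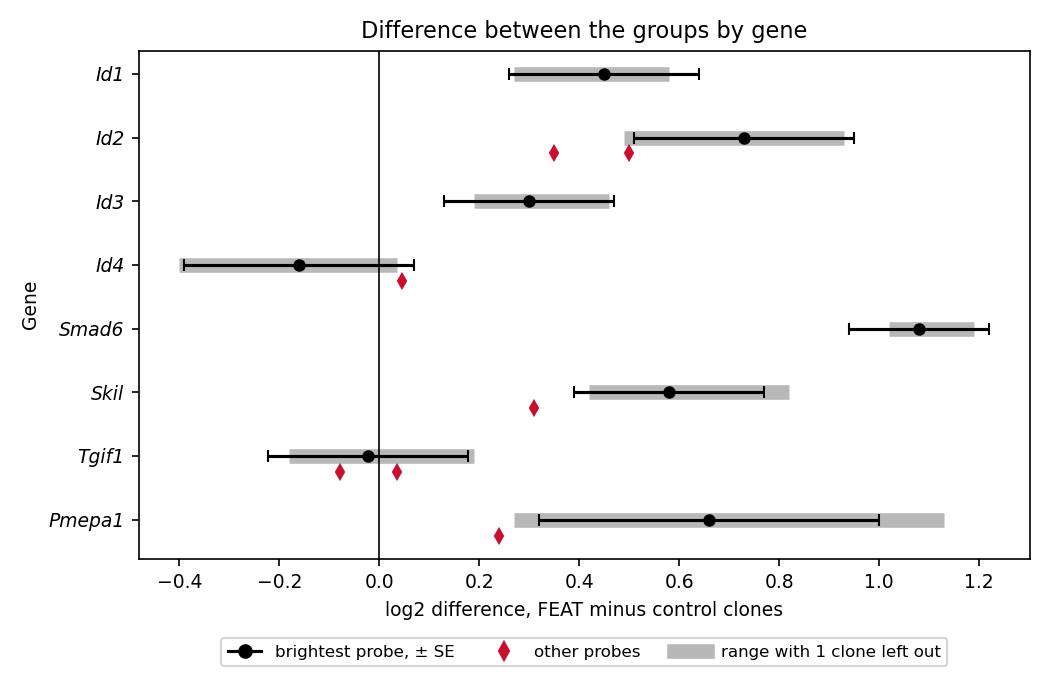
Log2 difference between FEAT and control clones (x axis) for the 8 tested members (y axis); black points with bars are the brightest probe with its SE, red diamonds the other tested probes, and grey bars the range when 1 of the 6 clones was left out. Smad6 lies at 1.08 with a narrow range of 1.02 to 1.19, while Pmepa1 ranges from 0.27 to 1.13 and Tgif1 and Id4 cross 0.

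Other genes of the pathway were looked up from 9 lists. Of the BMP and growth differentiation factor ligands, 0 of 10 on the array were above the background limit on all arrays and 6 were under it on every array. The 5 tested had a median log2 difference of -0.048 and 0 were called. Bmp5, above the limit on 2 of 3 control and 3 of 3 FEAT arrays, differed by 0.28. Gdf11, above it on 2 of 3 control and 1 of 3 FEAT arrays, differed by -0.22, and Bmp2 was not well above background on any array. All 5 TGF-beta and activin ligands on the array were above the limit, and their median was 0.22 with 0 called. Inhba, the activin beta A subunit, read 1360.1, 1515 and 1384 in control 1, control 2 and control 3, and 2448, 2009.9 and 2611 in FEAT-3, FEAT-15 and FEAT-20, without overlap (log2 difference 0.69, limma adjusted p = 0.183). Inha, the inhibin alpha subunit, and Tgfb2 differed by 0.35 and 0.22.

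Among 12 tested receptors and coreceptors, with a median of 0.056, 1 was called higher and 0 lower. This was Amhr2, the type II receptor of anti-Müllerian hormone, which signals through the BMP branch. Amhr2 read 105, 107 and 94.3 in control and 138, 195 and 200.4 in FEAT clones, with a log2 difference of 1.08 (limma, adjusted p = 0.0235). A further Amhr2 probe, above the limit on 4 of 6 arrays, differed by 0.091 (adjusted p = 0.929), and the last was not well above background on any array. The call was lost without control 1 (adjusted p = 0.172), control 3 (0.113), FEAT-15 (0.0713) or FEAT-20 (0.0509). Bmpr1b, a type I BMP receptor, was above the limit on 0 of 3 control and 2 of 3 FEAT arrays on its brightest probe and on no array on its other probes, so no difference is given for it. The type I receptor Acvr1 differed by 0.29. Of the SMADs that carry the signal, 0 of 5 tested were called and the median was 0.060. Smad3 read 1167, 1067 and 1293 in control and 1429, 2013 and 1180.3 in FEAT clones, so the groups overlapped (log2 difference 0.32, limma adjusted p = 0.684). Like Skil and Pmepa1, Smad3 had its lowest FEAT value in FEAT-20. Smad5, of the BMP branch, differed by -0.18. Smad9, of the same branch and above the limit on 1 of 3 control and 3 of 3 FEAT arrays, differed by 0.22. Smad9 was also counted in the list of BMP target genes.

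Extracellular antagonists had 0 of 8 tested called and a median of 0.062, with Nbl1 at 0.41, Fstl1 at 0.31 and Chrd, the BMP trap chordin, at 0.24. Another Nbl1 probe above the limit on all arrays gave 0.16. Corepressors and turnover factors of SMADs, 11 tested, had 0 called and a median of 0.022. Tob1, an antiproliferative protein that represses SMAD signalling, differed by -0.39, the deubiquitinase Usp15 by 0.34, and Ski, the relative of Skil, by 0.26. Other probes above the limit on all arrays gave 0.18 for Usp15 and 0.14 for Ski.

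The TGF-beta target genes had 1 of 9 tested called higher and 0 lower, with a median of 0.40. The gene called was Ccn2, a matricellular protein, at 14823, 11661 and 15608 in control and 36792, 29394 and 31233 in FEAT clones (log2 difference 1.20, limma adjusted p = 0.0192). Its call was lost without control 1 (adjusted p = 0.148) or FEAT-3 (0.0691). Snai1, a zinc finger repressor, read 654, 616 and 762 in control and 1059, 1701 and 975 in FEAT clones, and differed by 0.83 (adjusted p = 0.201). Another Snai1 probe above the limit on all arrays gave a smaller difference, 0.51 (limma, adjusted p = 0.42). Ltbp3, which binds latent TGF-beta, differed by 0.74 on its brightest probe (adjusted p = 0.165). Of its other probes, 1 passed the test at 0.93 (limma, adjusted p = 0.0481) and 1 did not, at 0.46 (0.353), so the call for Ltbp3 depended on the probe. For Snai1, as for Skil, the groups did not overlap and FEAT-20 stood nearest to the controls, at 0.36. The groups of Ccn2 and Ltbp3 did not overlap either, but there FEAT-20 was not the nearest. For Ccn2 FEAT-15 was nearest, at 1.08 against 1.12 in FEAT-20, and for Ltbp3 FEAT-3 was, at 0.56 against 0.64.

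The BMP target genes other than the members had 0 of 7 tested called and a median of 0.18. Atoh8, a basic helix-loop-helix factor induced by BMPs, read 303, 316 and 288 in control 1, control 2 and control 3, and 369.8, 547 and 526 in FEAT-3, FEAT-15 and FEAT-20. Its groups did not overlap, its log2 difference was 0.69 (SE 0.14, adjusted p = 0.107), and FEAT-20 stood at 0.72. Dlx3 differed by 0.27, with all its FEAT arrays and 2 of 3 control arrays above the limit. Hamp, Sp7, Hey2, Dlx5, Msx1 and Msx2 were not well above background on any array.

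The last list held the E proteins, other helix-loop-helix factors and Ets1. It had 0 of 7 tested called and a median of 0.0052. Hes1, a repressor best known as a Notch target, read 447, 302 and 359.7 in control and 1105, 1167 and 668 in FEAT clones, without overlap (log2 difference 1.45, adjusted p = 0.0582). The E protein genes that ID proteins act on differed on their brightest probes by -0.34 for Tcf3, -0.23 for Tcf4 and 0.29 for Tcf12. Another probe above the limit on all arrays gave 0.12 for Tcf3 and 0.26 for Tcf12, so for Tcf3 the sign depended on the probe. A further Tcf4 probe, above the limit on 3 of 6 arrays, gave -0.031, and a further Tcf12 probe, above it on 1 of 6, gave -0.099. The muscle factors Myod1, Myf5 and Myf6 were not well above background on any array.

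**Figure D5:**
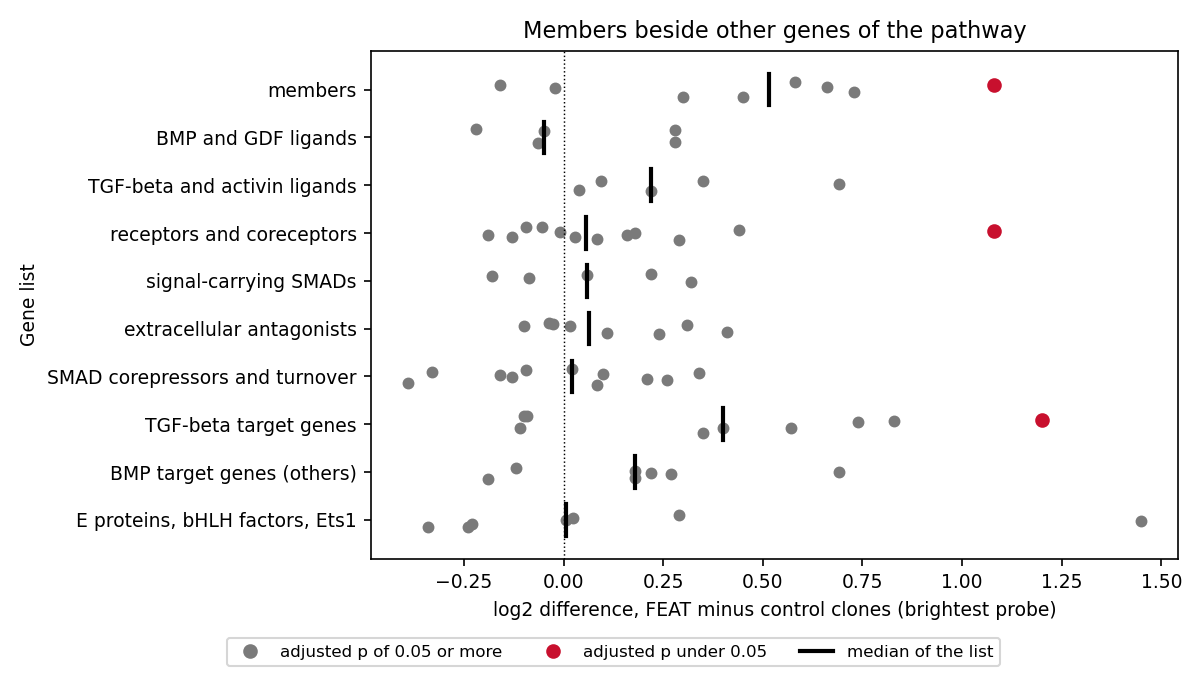
Log2 difference between FEAT and control clones (x axis) on the brightest probe of each tested gene, for the members and the 9 lists of other pathway genes (y axis); points are genes, red points passed an adjusted p of 0.05, and black bars are list medians. Smad6, Amhr2 and Ccn2 are the genes past the threshold. The medians of the 9 lists run from -0.048 to 0.40, and the bar of the members lies at 0.51.

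The genes whose profile over the 6 clones was nearest to that of a member were found among the 13315 genes tested, by the root mean square difference of log2 values centred on each gene's mean. Those nearest to Smad6 were Junb (0.14), Phldb2 (0.15), Per1 (0.15), Hbegf (0.16) and Dysf (0.16). The early response gene Junb stood at 0.88, 0.50 and 0.34 above its mean over all clones in FEAT-3, FEAT-15 and FEAT-20, and at -0.65, -0.45 and -0.63 in the controls. Nearest to Id1 were Doxl2 (0.056), Slc29a2 (0.068), Flrt2 (0.077), Mical2 (0.095) and Vmn1r219 (0.097), in which FEAT-15 was the highest and control 2 the lowest clone. Nearest to Id2 were Rab11fip2 (0.15), Ap5b1 (0.16), Cpeb3 (0.17), Osr1 (0.18) and Plau (0.18), in which FEAT-20 was the highest clone. The measure takes in all 6 clones, so the difference between the groups and the order of clones within them both enter it. With only 6 clones, nearness is a description and no test of a link between genes.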

How the data were processed

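The deposited values of each array were linear probe intensities of 45281 probes. The authors used BeadStudio, per the submitters' processing notes. The lowest intensities were 50.1 to 53.1, so background had not been subtracted, and the files used here held no detection p. The deposited table of the series held the same intensities times 1 factor per array.

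With R 4.3.3 and limma 3.58.1 the intensities were corrected by normexp fitted to the signals (offset 16), quantile normalized and put on the log2 scale. The top 60% of probes by mean (27169) were tested by lmFit and eBayes, two-sided, with Benjamini-Hochberg adjustment over all of them and a threshold of 0.05. Folds come from these log2 values. The planned filter on detection p was replaced by this fallback. An exact permutation test of 3 against 3 cannot go below 0.1 and was not used. The fit was checked on simulated log2 values with known changes put in. The background correction, normalization, filter and background limit were not checked in this way.

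The background limit lay 3 SDs above the mode of an array's log2 intensities, with the SD taken from values under the mode. The brightest probe stood for a gene. Gene symbols came from GEO's annotation of the platform: 34885 had 1 symbol, 18 several and 10378 were unnamed here. Of 125 list entries 116 were on the array under their symbol. The members, lists and motifs were chosen with earlier results of these data known. The text names every member, list genes that were called, up to 3 others per list with the smallest p, and the 5 genes nearest to Smad6, Id1 and Id2. Tcf4 and the genes listed as below background were named after their values were seen. The planned comparison of protein sequences was not run. Alternatives were other background corrections, scalings, filters and variance models, and each clone left out.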

Additional observations from a re-analysis of the deposited data

How the results depend on the processing

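The direction of Id1, Id2, Id3, Id4, Smad6, Skil and Pmepa1 was kept in all 7 alternative settings of correction, scaling, filter and variance model, and Smad6 was the 1 member called in each, with adjusted p from 0.00643 to 0.0273. Its log2 difference was 0.98 to 1.08 there. Tgif1 changed sign with the deposited value table (0.00034), and, within a spread of -0.18 to 0.19, in 3 of 6 omissions of a clone. Another of its probes gave 0.036. Id4 ran from -0.40 to 0.036 over the omissions, and its other probe gave 0.045. The number of probes called over all probes was 0 to 158 over the omissions, and 1 or 0 members were called. Without control 1 limma called 0 probes, with 1934 at an unadjusted p under 0.05. Without control 2, control 3, FEAT-3, FEAT-15 and FEAT-20 it called 158, 10, 18, 42 and 62. No paired analysis was possible because the clone numbers of the groups (1, 2, 3 and 3, 15, 20) share 1 number, which only names clones. Without a filter 3 pathway genes outside the members were called in place of 2. Smad7 and Bambi had a single probe each, not well above background on any array, which leaves the level of these genes unknown. For Skil, a probe at background stood beside another at 731 to 1316. The signal of Id4 close to background limits its differences.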

Other observations

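After the match in the Smad6 window had been seen, all genes with the palindromic SMAD box in a RefSeq promoter window were looked up. The windows with the box belonged to 67 genes, of which 28 were tested on the array. Of these, 1 was called, Smad6 itself (limma, adjusted p = 0.0192), the gene that prompted the lookup, and 0.225% of all genes tested were called. The median log2 difference of the 28 genes was -0.00042, against 0.0071 over all genes tested, and 14 of the 28 were positive. The groups did not overlap for 4 of the 28 genes, against 15.2% of all genes tested.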
